A study of Mus musculus with 12 samples.

Results

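The data concern 10 genes of inflammation and matrix remodelling in cultured medulloblastoma cells: Mmp13, Mmp3, Timp1, Serpinb2, Saa3, Lcn2, Il6, Ccl5, Ptgs2 and Acod1. They were chosen by name out of 22180 genes with a probe set of their own, because earlier results of the same arrays showed higher values at 12 h than at 6 h under LBH589. That change, the change in DMSO and the difference between them are therefore given as descriptions without a test. Each gene had 1 usable probe set, and all 10 passed the filter on low values. A further probe set annotated to both Serpinb2 and Serpinb10 was not used.

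The cells, called MP, model Group 3 medulloblastoma driven by MYC, an embryonal brain tumour, and were taken from cerebella of NSG mice, dissociated and plated in NeuroCult medium with a proliferation supplement. Cultures of 3 tumours, MP525, MP567 and MP570, received 25 nM LBH589 (panobinostat, an inhibitor of histone deacetylases) or 0.00025% DMSO, its solvent, and were lysed after 6 or 12 h. The comparison was made to learn how such an inhibitor harms these cells. Each tumour gave 1 array for LBH589 at 6 h, LBH589 at 12 h, DMSO at 6 h and DMSO at 12 h, so each of the 4 groups held 3 arrays. NSG mice have no mature lymphocytes but keep myeloid cells, and no step that separates tumour cells from host cells is given in the sources used here. In RNA of a whole culture, a change in how many cells of a type are present and a change in RNA per cell cannot be told apart. Expression is given as log2 values from Affymetrix arrays that probe whole transcripts, with array medians between 7.10 and 7.21 and 25th percentiles between 5.94 and 6.04.

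As background, MMP13 (a collagenase) and MMP3 (stromelysin 1) cut proteins of the extracellular matrix, and TIMP1 binds and blocks such metalloproteases. SERPINB2, also called PAI-2, inhibits the urokinase plasminogen activator. SAA3 and LCN2 are secreted acute phase proteins, and LCN2 binds bacterial siderophores and so withholds iron. IL-6 signals through gp130 and STAT3, CCL5 attracts T cells and monocytes, PTGS2 (COX-2) makes the precursor of prostaglandins, and ACOD1 makes itaconate in activated macrophages. Many of these genes are known targets of the transcription factors NF-kB, AP-1 and C/EBP in fibroblasts, macrophages and other cells.

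The stretches just before the transcription starts of 4 members are shown as examples that carry exact matches to the binding motifs of those factors. All 10 members had their highest mean in LBH589 at 12 h, so that trait does not set these 4 apart. The 250 bases before the start are from RefSeq, build GRCm38.p6, written 5′ to 3′ on the gene's strand with motif matches in capitals. Of the 10 genes, 9 matched the promoter table, which had no entry for Ccl5. The windows lie at chr9:7272264-7272513 (Mmp13), chr9:7445572-7445821 (Mmp3), chr1:150099781-150100030 (Ptgs2) and chr5:30012864-30013113 (Il6), all on the plus strand.
Mmp13: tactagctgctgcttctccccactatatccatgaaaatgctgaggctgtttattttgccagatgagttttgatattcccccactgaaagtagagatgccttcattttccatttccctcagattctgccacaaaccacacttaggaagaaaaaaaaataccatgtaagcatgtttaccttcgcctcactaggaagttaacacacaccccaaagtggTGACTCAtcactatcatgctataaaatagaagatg
Mmp3: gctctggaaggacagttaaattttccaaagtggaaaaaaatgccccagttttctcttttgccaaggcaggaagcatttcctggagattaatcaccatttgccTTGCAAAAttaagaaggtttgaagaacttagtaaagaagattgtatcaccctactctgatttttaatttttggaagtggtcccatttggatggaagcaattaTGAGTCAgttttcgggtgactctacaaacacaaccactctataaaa
Ptgs2: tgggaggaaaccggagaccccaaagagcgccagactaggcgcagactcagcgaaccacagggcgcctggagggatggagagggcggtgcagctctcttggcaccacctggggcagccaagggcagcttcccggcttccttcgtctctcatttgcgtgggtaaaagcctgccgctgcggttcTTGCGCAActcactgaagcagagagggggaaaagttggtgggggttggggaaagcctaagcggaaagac
Il6: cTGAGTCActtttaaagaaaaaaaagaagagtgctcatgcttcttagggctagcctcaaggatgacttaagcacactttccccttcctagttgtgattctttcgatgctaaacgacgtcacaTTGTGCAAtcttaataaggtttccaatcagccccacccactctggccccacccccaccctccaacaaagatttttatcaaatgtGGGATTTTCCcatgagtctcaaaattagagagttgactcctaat

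The motifs searched on both strands were the NF-kB consensus, TGANTCA for AP-1 and TTGCNNAA for C/EBP, and no matches in these windows overlapped. Mmp13 held an AP-1 match at -35 to -29, counted from the transcription start. Mmp3 held an AP-1 match at -46 to -40 and a C/EBP match at -148 to -141. Ptgs2 held a C/EBP match at -69 to -62. Il6 held all 3 motifs, with NF-kB at -44 to -35, C/EBP at -128 to -121 and AP-1 at -249 to -243. Over the 9 genes with a window, AP-1 matched in 4 (Mmp13, Mmp3, Serpinb2 and Il6), C/EBP in 6 (Mmp3, Saa3, Serpinb2, Ptgs2, Il6 and Lcn2) and NF-kB in 1 (Il6). Across 32851 windows of the same length the shares were 6.749%, 9.564% and 7.251% for AP-1, C/EBP and NF-kB. These shares are per window, while the counts of members are per gene, and Serpinb2 had 2 windows. A match describes the letters only, and Acod1 and Timp1 held none of the 3 motifs in their windows.

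Among all 10 genes, the mean of the 3 LBH589 arrays at 12 h was the highest of the 4 groups. DMSO at 6 h held the lowest mean for 7 genes, and LBH589 at 6 h for Mmp3, Serpinb2 and Acod1. Within tumours, the LBH589 array at 12 h was above the LBH589 array at 6 h in 30 of 30 gene and tumour pairs, by 0.62 to 2.50 on the log2 scale. The DMSO array at 12 h was above that at 6 h in 29 of 30 pairs, and Serpinb2 in MP570 was the exception at -0.17. The change was larger in LBH589 than in DMSO in 30 of 30 pairs, with excesses of 0.01 to 1.79. These contrasts served to choose the genes, so their signs are descriptions only.

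**Figure D1:**
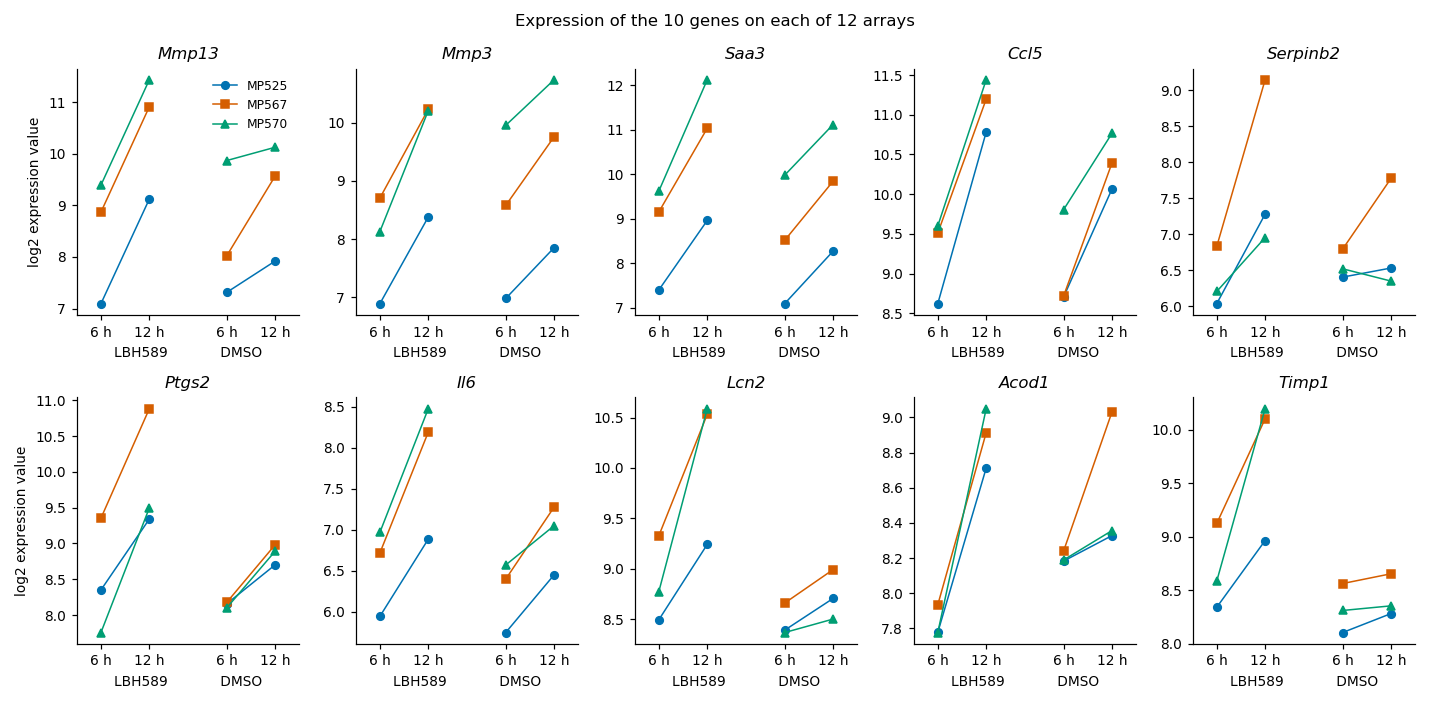
Log2 expression value (vertical axis) of each of the 10 genes on the 12 arrays, with LBH589 at 6 and 12 h left of DMSO at 6 and 12 h, and lines joining the arrays of a tumour (circles MP525, squares MP567, triangles MP570). The LBH589 lines slope upward in every panel, by 0.62 to 2.50, and vertical scales differ between panels.

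Mmp13 had the largest mean change from 6 to 12 h in LBH589. In LBH589 its log2 values were 7.09, 8.87 and 9.39 at 6 h and 9.12, 10.91 and 11.44 at 12 h, in MP525, MP567 and MP570. Under DMSO they were 7.31, 8.02 and 9.87 at 6 h and 7.92, 9.57 and 10.13 at 12 h. Every tumour was highest in LBH589 at 12 h, although the tumours stood so far apart that MP525 at that point lay below MP570 in LBH589 at 6 h. The change was 2.03, 2.04 and 2.04 in LBH589, nearly the same in the 3 tumours, against 0.61, 1.55 and 0.26 in DMSO. The means were 2.04 (4.11-fold) in LBH589 and 0.80 (1.75-fold) in DMSO, with SDs over the tumours of 0.01 and 0.67 (n = 3).

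Mmp3, the stromelysin, was the exception among the proteases in MP570. In LBH589 the values were 6.89, 8.70 and 8.13 at 6 h and 8.38, 10.23 and 10.21 at 12 h, in the same tumour order. With DMSO they were 6.98, 8.58 and 9.95 at 6 h and 7.85, 9.76 and 10.74 at 12 h. In MP570 both LBH589 arrays lay below the DMSO arrays of the same time, with differences of -1.82 at 6 h and -0.53 at 12 h. The change with time was 1.49, 1.53 and 2.08 in LBH589 and 0.87, 1.18 and 0.78 in DMSO. In MP525 and MP567, LBH589 was above DMSO at 12 h by 0.53 and 0.47.

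Timp1, the inhibitor of these enzymes, had the smallest change with time in DMSO. Its LBH589 values were 8.34, 9.12 and 8.59 at 6 h and 8.97, 10.10 and 10.20 at 12 h. The DMSO values were 8.10, 8.56 and 8.31 at 6 h and 8.28, 8.65 and 8.35 at 12 h. All 3 LBH589 arrays at 12 h lay above every DMSO array. The change was 0.62, 0.98 and 1.61 in LBH589, against 0.18, 0.09 and 0.04 in DMSO.

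Serpinb2, the plasminogen activator inhibitor, stood out in MP567. Its LBH589 values were 6.04, 6.83 and 6.21 at 6 h and 7.28, 9.15 and 6.96 at 12 h. In DMSO the 3 tumours gave 6.41, 6.79 and 6.52 at 6 h and 6.53, 7.78 and 6.35 at 12 h. The LBH589 arrays at 12 h were all above those at 6 h, and MP567 stood well above the other tumours at 12 h in both treatments. One array, LBH589 at 6 h in MP525, was below the array's 25th percentile. The change was 1.24, 2.32 and 0.75 in LBH589 and 0.13, 0.98 and -0.17 in DMSO.

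Saa3, the acute phase gene, differed most between tumours. LBH589 gave 7.40, 9.15 and 9.62 at 6 h and 8.96, 11.04 and 12.13 at 12 h. DMSO gave 7.09, 8.52 and 9.98 at 6 h and 8.27, 9.84 and 11.12 at 12 h. The order MP525, MP567, MP570 held in all 4 groups, and within each tumour LBH589 at 12 h was highest. The change was 1.56, 1.88 and 2.50 in LBH589 and 1.18, 1.33 and 1.14 in DMSO, so DMSO cultures also stood higher at 12 h in every tumour.

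Lcn2, the siderophore binder, resembled Timp1. Its LBH589 values were 8.49, 9.33 and 8.77 at 6 h and 9.24, 10.53 and 10.59 at 12 h. DMSO values were 8.39, 8.66 and 8.37 at 6 h and 8.70, 8.99 and 8.50 at 12 h. The LBH589 arrays at 12 h lay above all 6 DMSO arrays. The change was 0.75, 1.21 and 1.82 in LBH589, against 0.31, 0.33 and 0.13 in DMSO. Over the 12 arrays Lcn2 and Timp1 were the closest pair of members (r = 0.9903).

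Il6, the cytokine, had the same order of treatments in every tumour. LBH589 values were 5.94, 6.71 and 6.97 at 6 h and 6.88, 8.19 and 8.47 at 12 h. DMSO values were 5.74, 6.39 and 6.57 at 6 h and 6.45, 7.27 and 7.05 at 12 h. Both MP525 arrays at 6 h were under the array's 25th percentile. In every tumour LBH589 was above DMSO at 6 h (by 0.20, 0.32 and 0.40) and at 12 h (by 0.44, 0.92 and 1.43). The change with time was 0.94, 1.47 and 1.51 in LBH589 and 0.70, 0.88 and 0.48 in DMSO.

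Ccl5, the chemokine, stood higher at 12 h under both treatments without overlap. LBH589 gave 8.62, 9.51 and 9.60 at 6 h and 10.78, 11.20 and 11.44 at 12 h. DMSO gave 8.71, 8.72 and 9.81 at 6 h and 10.07, 10.39 and 10.77 at 12 h. The change was 2.16, 1.68 and 1.84 in LBH589, against 1.36, 1.67 and 0.96 in DMSO. In MP567 the changes under LBH589 and DMSO differed by only 0.01, the smallest excess of any gene and tumour. LBH589 was 0.79 above DMSO there at 6 h and 0.80 above it at 12 h.

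Ptgs2, the cyclooxygenase, was spread widely among LBH589 arrays and narrowly among DMSO arrays. LBH589 gave 8.35, 9.35 and 7.76 at 6 h and 9.34, 10.88 and 9.50 at 12 h. DMSO gave 8.16, 8.18 and 8.10 at 6 h and 8.70, 8.98 and 8.89 at 12 h. The SD at 6 h was 0.81 in LBH589 and 0.04 in DMSO (n = 3 each). MP567 was highest at both times in LBH589, and in MP570 LBH589 differed from DMSO by -0.35 at 6 h and 0.60 at 12 h. The change was 0.99, 1.53 and 1.74 in LBH589 and 0.54, 0.80 and 0.79 in DMSO.

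Acod1, the itaconate enzyme, was lower in LBH589 than in DMSO at 6 h in every tumour. LBH589 gave 7.78, 7.93 and 7.78 at 6 h and 8.71, 8.91 and 9.05 at 12 h. DMSO gave 8.18, 8.24 and 8.19 at 6 h and 8.33, 9.03 and 8.36 at 12 h. The 3 LBH589 arrays at 6 h were below all DMSO arrays, while at 12 h LBH589 was above DMSO in MP525 and MP570 and below it in MP567. The change was 0.93, 0.98 and 1.27 in LBH589, against 0.14, 0.79 and 0.17 in DMSO.

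**Figure D2:**
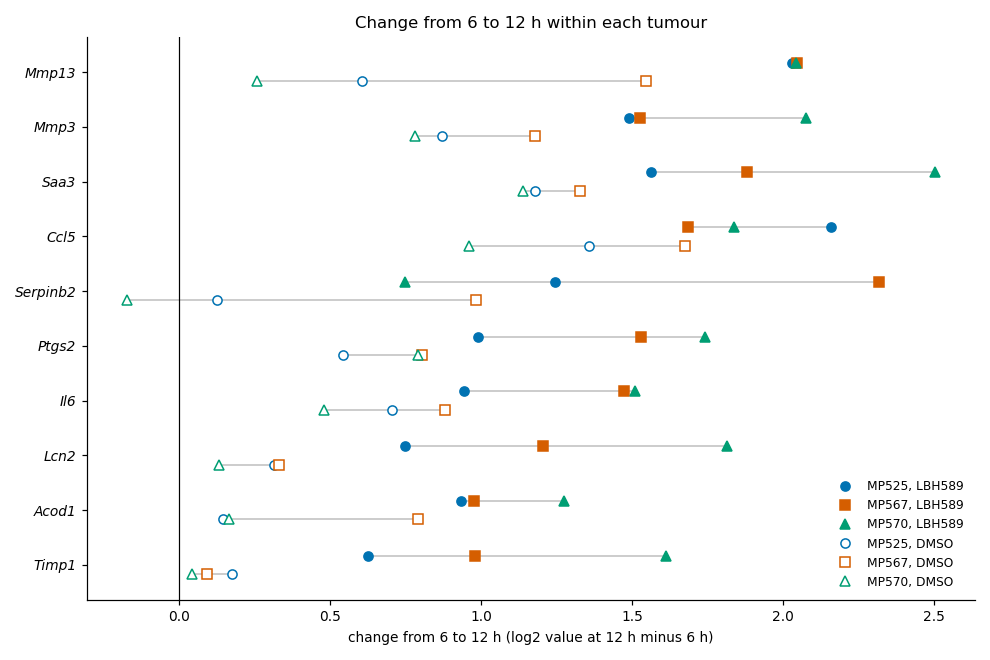
Change from 6 to 12 h (horizontal axis, log2 value at 12 h minus 6 h) of the 10 genes within each tumour, with LBH589 as filled symbols in the upper row of each gene and DMSO as open symbols in the lower row, and grey lines spanning the 3 tumours. Every filled symbol lies right of the open symbol of its tumour, most narrowly for Ccl5 in MP567 (0.01), and the single value below 0 is Serpinb2 in MP570 under DMSO (-0.17).

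Over the 10 genes, the median of the mean change was 1.43 in LBH589 and 0.70 in DMSO, against 0.01 and 0.00 over the 18652 genes tested. The median excess of LBH589 over DMSO was 0.76, from 0.56 for Ccl5 to 1.24 for Mmp13. By tumour, the median change in LBH589 was 1.12 in MP525, 1.53 in MP567 and 1.78 in MP570. In DMSO it was 0.58, 0.93 and 0.37, so MP567 had the largest change in DMSO and MP570 the smallest. The median excess was 0.53 in MP525, 0.57 in MP567 and 1.20 in MP570. These are values of 1 culture per tumour and condition, and the excess between tumours was not tested.

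LBH589 was then compared with DMSO over both times together. The choice of the genes did not use this contrast itself, but the contrast includes the LBH589 arrays at 12 h. A larger rise in LBH589 from a 6 h difference near 0 is enough to put the average above 0. Its calls and signs are therefore not independent of the choice. Lcn2 and Timp1 were higher in LBH589. Lcn2 was higher by 0.89 ± 0.23 on the log2 scale (± SE, 1.85-fold), with a limma adjusted p of 0.0114. Timp1 was higher by 0.84 ± 0.21 (1.79-fold), with a limma adjusted p of 0.0103. Both were higher in 3 of 3 tumours, Lcn2 by 0.32, 1.11 and 1.25 and Timp1 by 0.46, 1.01 and 1.06. In this fit, which has no block and ignores that arrays pair by tumour, 2 of 10 genes were called higher and 0 lower. Of all tested genes, 15.7% were called higher and 14.4% lower. Neither call held in the same fit without the arrays of MP567 (adjusted p of 0.0633 for Lcn2 and 0.0539 for Timp1 by limma) or of MP570 (0.165 and 0.137).

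With the tumour as a block, which removes differences in level between tumours, 7 of 10 genes were called higher in LBH589 (limma), where 23.7% of all tested genes were. The 5 further genes were Mmp13 at 0.67 ± 0.14 (adjusted p = 0.00151), Saa3 at 0.58 ± 0.12 (0.000802), Ccl5 at 0.45 ± 0.11 (0.00341), Ptgs2 at 0.69 ± 0.19 (0.00684) and Il6 at 0.62 ± 0.11 (0.000263), as log2 difference ± SE. Each was higher in 3 of 3 tumours. Without the block their limma adjusted p were 0.453, 0.587, 0.192, 0.0955 and 0.132, in the same order. In the block fit the 6 h and 12 h differences of a tumour count separately, so its SE is not that over 3 tumours. The SDs of the averaged effect over the 3 tumours were 0.37, 0.30, 0.30, 0.74 and 0.30, again in that order. A test with the tumour as the unit was not run.

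Serpinb2, Mmp3 and Acod1 were not called either way. Serpinb2 differed by 0.35 ± 0.18 (± SE with the tumour as a block) and was higher in 3 of 3 tumours. Mmp3 differed by -0.22 ± 0.20 and Acod1 by -0.03 ± 0.09, with tumours on both sides of 0. Over the 10 genes the median difference was 0.60, against -0.01 over all tested genes, and 27 of the 30 gene and tumour values were above 0. The median by tumour was 0.32 in MP525, 0.86 in MP567 and 0.28 in MP570.

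**Figure D3:**
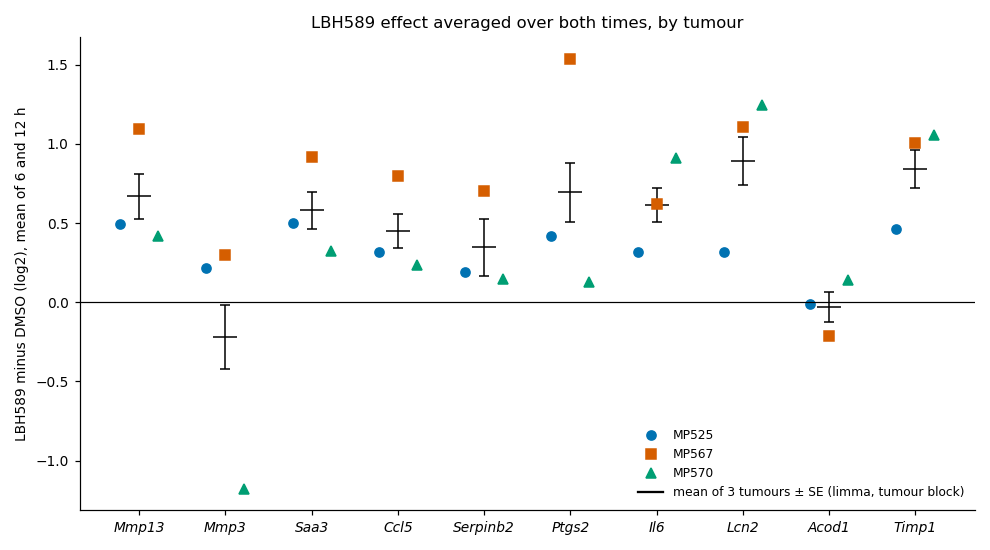
LBH589 minus DMSO averaged over 6 and 12 h (vertical axis, log2) for the 10 genes, with coloured symbols for the 3 tumours and black bars for their mean ± SE from the limma fit with the tumour as a block. This SE counts the 6 h and 12 h differences of a tumour separately and is not that over 3 tumours. Lcn2 and Timp1 have the highest means (0.89 and 0.84), and Mmp3 in MP570 lies lowest at -1.18.

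The averaged effect joins unlike values at the separate times. At 6 h, LBH589 was above DMSO in 17 of 30 gene and tumour pairs, with a median over the genes of 0.18. By 12 h it was above in 28 of 30, with a median of 0.94. The mean differences at 12 h were largest for Lcn2 (1.39), Timp1 (1.33) and Mmp13 (1.29) and smallest for Mmp3 (0.16) and Acod1 (0.32). At 6 h they ran from -0.60 for Mmp3 and -0.37 for Acod1 to 0.39 for Lcn2. The 6 h and 12 h differences use the same arrays as the changes with time and are given without a test.

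Levels of the 10 genes also differed between the tumours, and 9 of 10 were called by limma's F test of the tumour terms, where 37.4% of all tested genes were. Saa3 had the widest range, 6.87-fold between the mean of 4 arrays in MP570 (10.71) and in MP525 (7.93), with a limma adjusted p of 6.42e-08. Mmp13 followed at 5.08-fold (10.21 in MP570, 7.86 in MP525) and Mmp3 at 4.69-fold (9.76 in MP570, 7.52 in MP525). Serpinb2 spanned 2.19-fold, with 7.64 in MP567, 6.56 in MP525 and 6.51 in MP570. The remaining called genes spanned 1.59-fold (Lcn2) to 2.01-fold (Il6). Acod1 was not called (1.21-fold, limma adjusted p = 0.162).

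MP525 was the lowest tumour for 8 genes, and MP570 for Serpinb2 and Ptgs2. The highest was MP570 for Mmp13, Mmp3, Saa3, Ccl5 and Il6, and MP567 for Serpinb2, Ptgs2, Lcn2, Acod1 and Timp1. Each tumour is 1 source of cells with 4 cultures, so these differences are between 3 sets of cultures. Without MP525, Mmp3, Il6, Lcn2 and Timp1 were no longer called, and without MP567, Serpinb2, Ptgs2, Lcn2 and Timp1 were not, which left 5 called in each case. Lcn2 and Ptgs2 also lost their call without single arrays. Lcn2 did so without LBH589 at 6 h in MP525 (limma adjusted p = 0.082) or without LBH589 at 6 h or 12 h in MP567 (0.0959 and 0.0778). Ptgs2 did so without the same arrays of MP567 (0.135 and 0.129) or without LBH589 at 12 h in MP570 (0.0542).

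The LBH589 effect itself differed between tumours for Mmp3 and Ptgs2. This F test of treatment by tumour was added after the values were seen, and it called 2 of 10 genes, where 4.35% of all tested genes were called. For Mmp3, LBH589 differed from DMSO by 0.22 in MP525, 0.30 in MP567 and -1.18 in MP570 (limma adjusted p = 0.0007). Ptgs2 was higher by 0.42, 1.54 and 0.13 in MP525, MP567 and MP570 (limma adjusted p = 0.00187). The call for Mmp3 was lost without MP570 (limma adjusted p = 0.812), and that for Ptgs2 without MP567 (0.776). Lcn2 was just outside at an adjusted p of 0.0549, and the other 7 genes had adjusted p of 0.166 or more.

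The 10 genes moved together across the arrays, which their shared choice favours. Pairs of members correlated at r = 0.4298 (Saa3 and Serpinb2) to 0.9903 over 12 arrays, with a median of 0.7116 over 45 pairs. Il6 was closest to the mean of the other 9 (r = 0.9573) and Serpinb2 farthest (r = 0.7131). The points share tumours, so these correlations are descriptions. The 5 other genes closest to the mean of the members' standardised values over 12 arrays were Osmr (r = 0.9622), Hrc (0.9457), Ptges (0.9457), Ypel4 (0.9351) and Tert (0.9292). Over the 6 LBH589 arrays they were Ptges (r = 0.9977), Lamb2 (0.9934), Neurog1 (0.9914), Lrrc23 (0.9905) and Oxld1 (0.9903). Of these genes, Osmr alone spanned more than 1 log2 unit over the arrays of its own ranking (12 arrays, or the 6 LBH589 arrays).

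Osmr encodes a receptor subunit for oncostatin M, and Ptges makes prostaglandin E2 from the product of PTGS2. Osmr read 7.44, 7.84 and 7.76 in LBH589 at 6 h and 8.10, 8.63 and 8.38 at 12 h, against 7.75, 7.67 and 7.86 in DMSO at 6 h and 7.83, 8.16 and 7.99 at 12 h. Ptges read 7.83, 8.13 and 8.09 in LBH589 at 6 h and 8.26, 8.68 and 8.64 at 12 h, against 7.73, 7.94 and 8.16 in DMSO at 6 h and 7.80, 8.23 and 8.01 at 12 h. For both genes, all LBH589 arrays at 12 h were above all those at 6 h.

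**Figure D4:**
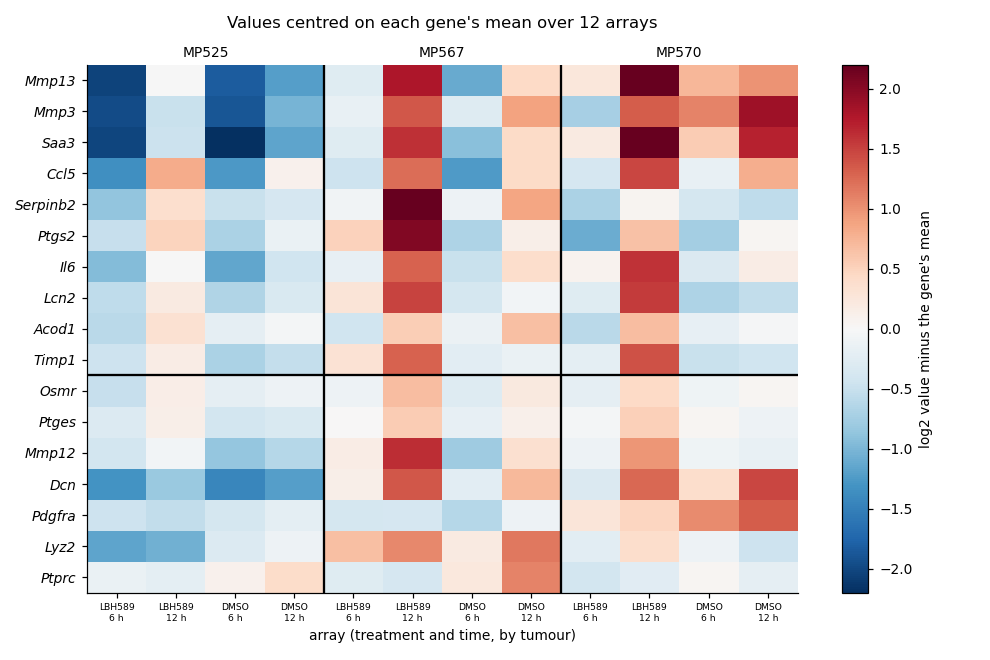
Log2 value minus the gene's mean over 12 arrays (colour, red above and blue below) for the 10 genes (upper block) and 7 other genes (lower block), by tumour and, within a tumour, LBH589 at 6 and 12 h left of DMSO at 6 and 12 h. Each member is redder in LBH589 at 12 h than at 6 h in every tumour, Osmr and Ptges show the same order, and Dcn is lowest in MP525.

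The other genes of these pathways were counted in 10 lists, written with earlier results of these arrays known. Of 144 genes, 125 were tested. For LBH589 against DMSO over both times, 31 were called higher (24.8%) and 10 lower (8%) by limma, where 15.7% of all tested genes were called higher and 14.4% lower. With the tumour as a block the counts were 49 and 16, where 23.7% of all tested genes were called higher and 22.2% lower. For 12 h against 6 h in LBH589, 0 were called without the block (limma, 22 at an unadjusted p under 0.05). With it 10 were called higher and 1 lower, where 0.724% and 1.27% of all tested genes were. In DMSO 0 were called for the change with time in either limma fit (4 at an unadjusted p under 0.05 without the block), where 0.22% of all tested genes were called higher with the block. The same shares of all tested genes are the background for the counts by list that follow.

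Among 25 other cytokines and chemokines, 4 were higher (16%) and 2 lower (8%) in LBH589, against 15.7% and 14.4% of all tested genes, so the share called higher was at the background and the share called lower below it. With the tumour as a block the counts were 9 and 3. Il1b, an inflammatory cytokine, was higher by 0.85 ± 0.23 (log2 ± SE, limma adjusted p = 0.0135), and Cxcl2, a neutrophil chemokine, by 0.61 ± 0.13 (0.00394). Il1a was higher by 0.56 ± 0.17, and Il23a was lower, at -0.74 ± 0.12. With the tumour as a block, 3 of the 25 were called higher at 12 h in LBH589. Cxcl5 changed by 1.05 in LBH589 and 0.60 in DMSO, Il1b by 1.01 and -0.03, and Ccl3 by 0.87 and 0.38.

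The list of the IL-6 receptor and STAT3 axis had 5 of 12 genes higher and 0 lower. It also holds receptors of other cytokines, Lifr and Osmr. Il6ra, the IL-6 receptor itself, was not called, at 0.01 ± 0.16 (log2 ± SE, limma adjusted p = 0.962). Stat3 was higher by 1.19 ± 0.10 (log2 ± SE, limma adjusted p = 9.39e-06), Lifr by 1.05 ± 0.26 (0.00922), Il6st, which encodes gp130, by 0.48 ± 0.10 (0.00406) and Tyk2, a kinase at these receptors, by 0.32 ± 0.10 (0.0269). Osmr was the single gene of the 12 called for the change with time in LBH589, once the tumour was a block (0.69, adjusted p = 0.0121 by limma).

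Among 25 other matrix proteases, TIMPs and plasminogen genes, 7 were higher (28%) and 3 lower (12%), against 15.7% and 14.4% of all tested genes. Plat, the tissue plasminogen activator, was higher by 1.32 ± 0.15 (log2 ± SE, limma adjusted p = 5.27e-05), Mmp17 by 1.04 ± 0.07 and Timp3, another inhibitor, by 0.90 ± 0.20. Mmp24, a membrane-bound metalloprotease, was lower, at -1.13 ± 0.11. For the change with time in LBH589, Mmp12 (0.96) and Adamts1 (0.50) were called higher and Mmp16 lower (-0.41) with the tumour as a block.

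Of 11 prostaglandin genes 1 was higher, Ptger4, a receptor (0.57 ± 0.10, log2 ± SE), and 2 were lower, Ptger3, another receptor (-1.18 ± 0.17), and Ptgds, a synthase (-0.31 ± 0.08). Pla2g4a, which releases arachidonic acid, and Ptges were called higher at 12 h in LBH589 with the tumour as a block, by 0.69 and 0.51. Among 11 acute phase and iron genes, 1 was higher, Lrp2 (0.48 ± 0.08), an endocytic receptor that binds LCN2. For 13 genes of innate sensing, 3 were higher and 2 lower, among them Icam1 (0.71 ± 0.11), Ticam1 (0.54 ± 0.10) and Cd40 (0.53 ± 0.12) higher and Tlr3 (-0.65 ± 0.14) lower. Icam1 was also called for the change with time in LBH589 under the block (0.62).

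Other clade B serpins had 0 of 6 tested genes called by limma (0 at an unadjusted p under 0.05), and 2 were called higher with the tumour as a block. Serpinb8 was called for the change with time in LBH589 under the block (0.61). Of the receptors for CCL5, 2 of 5 were tested and 1 was higher, Ackr1 (1.05 ± 0.26, log2 ± SE), a decoy receptor.

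Transcripts of the factors whose motifs were searched, and of their inhibitors, differed in direction. Of 11 NF-kB subunits and feedback genes, 4 were higher and 1 lower. The subunits Nfkb2 (1.16 ± 0.14, log2 ± SE) and Rel (0.48 ± 0.12) were higher and the subunit Rela was lower (-0.53 ± 0.13). The other genes called higher, Nfkbie (1.23 ± 0.14, limma adjusted p = 6.91e-05) and Nfkbib (0.28 ± 0.10), encode IkB proteins, which hold NF-kB inactive. Of the C/EBP factors, counted in the IL-6 list, Cebpb was higher by 0.25 ± 0.06 (limma adjusted p = 0.0101), and Cebpd differed by 0.01 ± 0.10 (0.959). Of 9 AP-1 factors, 5 were higher and 0 lower, with Junb at 1.12 ± 0.15 (limma adjusted p = 0.00018), Atf3 at 1.09 ± 0.16, Fos at 1.05 ± 0.24 and Fosb at 0.61 ± 0.15. Neither the NF-kB nor the AP-1 list had a gene called for the change with time in LBH589, in either fit.

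Markers of other cell types were read beside the 10 genes, since several members are known from macrophages, neutrophils or fibroblasts. Of 70 tested genes in 7 marker lists, 6 were higher (8.57%) and 4 lower (5.71%) in LBH589 over both times (limma), against 15.7% and 14.4% of all tested genes. Under the block the counts were 15 and 11, against 23.7% and 22.2%. For the change with time in LBH589, 4 (Adgre1, Dcn, Acta2 and Aldoc) were called higher under the block (5.71%), against 0.724% of all tested genes. One neutrophil marker lay under the array's 25th percentile on every array, and no marker of the other 6 lists did. The mean of 19 microglia and macrophage markers lay at 7.46 to 7.66 in LBH589 at 6 h and 7.44 to 7.70 at 12 h, against 7.52 to 7.60 in DMSO at 6 h and 7.36 to 7.82 at 12 h (log2, range over 3 arrays). In this list Cd68, C1qb and Fcgr3 were higher in LBH589 (0.46, 0.39 and 0.33) and Ptprc, which encodes the leukocyte antigen CD45, was lower (-0.55). Adgre1 was the single one of the 19 called for the change with time in LBH589 under the block (0.77). Neutrophil markers had 0 of 8 tested genes called by limma (1 at an unadjusted p under 0.05, and 1 called lower under the block), and their mean stayed between 6.42 and 6.78.

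The mean of 12 fibroblast and mural markers lay at 7.69 to 8.04 in LBH589 at 6 h and 7.78 to 8.36 at 12 h, against 7.81 to 8.10 in DMSO at 6 h and 7.67 to 8.17 at 12 h. For LBH589 against DMSO, 0 of these were called without the block (limma, 1 at an unadjusted p under 0.05). Under the block 3 were higher, Fn1 (0.63, limma adjusted p = 0.00279), Rgs5 (0.42, 0.00492) and Col1a1 (0.26, 0.0251), and Pdgfra was lower (-0.34, 0.0271). For the change with time in LBH589, Dcn (1.11) and Acta2 (0.64) were called higher under the block. Dcn, which encodes decorin, read 7.13, 8.57 and 8.12 in LBH589 at 6 h and 7.62, 9.81 and 9.71 at 12 h, against 7.00, 8.20 and 8.83 in DMSO at 6 h and 7.22, 9.15 and 9.91 at 12 h. It was picked for display after its values were seen, and like Mmp13, Mmp3 and Saa3 it was lowest in MP525. The tumour order differed within this list. By the mean over its arrays, MP525 was also lowest for Lum, Col3a1, Col1a1, Pdgfra, Pdgfrb, Postn, Fap and Acta2. For Pdgfra it lay close to MP567 (7.36 and 7.39). Going the other way, Fn1 and Rgs5 were highest in MP525, and Col1a2 was lowest in MP570. The part of these cell types in the levels of the 10 genes was not tested.

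Endothelial, astrocyte and oligodendrocyte markers had 1 gene higher and 0 lower in each list without the block, Kdr (0.76), Aldoc (1.25) and Cnp (0.89). Under the block, 3 endothelial markers were higher and 0 lower, and 1 oligodendrocyte marker was higher and 0 lower. Of the astrocyte markers, 2 were then higher, Aldoc and Gfap (0.27), and 2 lower, Slc1a3 (-0.37) and Slc1a2 (-0.34). Of 10 markers of Group 3 medulloblastoma and cerebellar progenitors, 0 were higher and 3 lower in LBH589, with Olig3 at -2.43, Npr3 at -1.62 and Prom1 at -0.77. Under the block 1 was higher, Nes (0.98, limma adjusted p = 0.000462), and 5 were lower. Of the 10 markers, 6 stood above the array median on every array.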

How the data were processed

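The authors deposited log2 expression values, 1 per probe set and culture, in a table of 12 columns. The log base is read from the range, 1.50 to 14.5. Per the labels, total RNA was converted with a whole-transcript kit and labelled with biotin. Per the submitters' processing notes, the one program named is Agilent Feature Extraction 10.7.3.1, made for another maker's arrays. Summarisation and normalization are not given in the sources used here. The values were used as deposited.

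Of 41345 probe sets, 23521 named 1 gene by the array annotation, 1814 named several and 16010 were not listed. The last 2 kinds were not used. The probe set with the highest mean stood for a gene (1082 genes had several), which gave 22180 genes. A gene was tested if it lay above the array's 25th percentile on at least 3 of 12 arrays (18652 genes).

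All tests used limma 3.58.1 in R 4.3.3 (lmFit, eBayes with a trend), two-sided, with Benjamini-Hochberg adjustment over the tested genes and calls at an adjusted p under 0.05. The fit of 4 group means had no block, and a fit with the tumour as a block was an alternative. Without the block the pairing by tumour is ignored, and SEs are wider for genes whose level differs between tumours. For Saa3 the SE of the averaged LBH589 effect was 0.68 without the block and 0.12 with it. Tumour differences were tested in the fit of groups plus tumour. The treatment-by-tumour test was added after the values were seen. The fit without a block was tested on simulated data, for the averaged LBH589 contrast only. The simulated arrays had no tumour effect, and the other fits and contrasts were not tested in this way. The labels give each tumour an array in every group: deviations from group means correlated at 0.450 to 0.805 between arrays of a tumour (18 pairs) and at -0.51 to -0.0577 between arrays of another tumour and group (36 pairs), so the tumour pairs the arrays. Scan dates or batches are not given in the sources used here. The number of arrays limits the precision. Nothing says that cultures of a tumour are separate animals, so p-values measure the spread between these cultures. In the fit without a block that spread includes the differences in level between tumours. In both fits the 6 h and 12 h arrays of a tumour count as separate cultures.

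The members, lists and tests were chosen with earlier results of these data known. Named genes were the 10 members, up to 4 called genes of a list per comparison with 1 direction in all tumours and the largest change, and the 5 genes closest to the members' mean over 12 and over the 6 LBH589 arrays. Genes called under the block only, genes of the marker lists, Nfkbib and the C/EBP factors were named after their values were seen. Promoter sequences are from RefSeq, build GRCm38.p6.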

Additional observations from a re-analysis of the deposited data

Results flagged for a closer look

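The LBH589 effect averaged over both times differed between tumours for Mmp3, by the F test of treatment by tumour (limma adjusted p = 0.0006999). The effects were 0.22 in MP525, 0.30 in MP567 and -1.18 in MP570 (log2, 1 LBH589 and 1 DMSO culture at each time). The DMSO cultures of MP570 had the highest Mmp3 value of their time, 9.95 at 6 h and 10.74 at 12 h.

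The same test picked Ptgs2 (limma adjusted p = 0.001869), with effects of 0.42 in MP525, 1.54 in MP567 and 0.13 in MP570. The DMSO cultures of the 3 tumours lay within 8.10 to 8.18 at 6 h and 8.70 to 8.98 at 12 h.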

How the results depend on the processing

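With the tumour as a replicate block, the genes called higher in LBH589 over both times numbered 7 in place of 2, the pathway genes called 65 in place of 41 and the marker genes 26 in place of 10. For the change with time in LBH589 it called 11 pathway genes and 4 marker genes in place of 0 each. Quantile normalization, centring on array medians, no filter, a filter at the 50th percentile and averaging the probe sets of each gene left 2 members called for LBH589 and 9 for tumour differences. Lcn2 was also called for a difference in effect between tumours after centring (limma adjusted p = 0.04) and with the 50th percentile filter (0.0479). Leaving out each array or tumour in turn gave 0 to 3 members called for LBH589, in the fit without a block. It gave 5 to 9 for tumour differences and 1 to 4 for a difference in effect. The median change with time ran from 1.09 to 1.76 in LBH589 and from 0.31 to 0.86 in DMSO, and its excess in LBH589 from 0.54 to 1.36. The pathway genes called ran from 31 to 46 and the marker genes from 8 to 12. For LBH589, 3 members were called without MP525 (Il6 added, limma adjusted p = 0.00536), without LBH589 at 12 h in MP525 (Il6, 0.0165), without DMSO at 6 h in MP570 (Ccl5, 0.0413) or without LBH589 at 6 h in MP570 (Ptgs2, 0.0366). For the difference in effect, single arrays left out added Lcn2, Timp1, Mmp13, Ccl5 or Saa3, at adjusted p of 0.00338 to 0.047. The averaged effect of Mmp3 ran from -0.62 to 0.26 and that of Acod1 from -0.1115 to 0.0873, across 0 in both cases. The cause of these shifts was not tested.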

Other observations

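Mmp13 and Mmp3 lie in a run of 10 neighbouring metalloprotease genes on mouse chromosome 9, by the gene order of GRCm38.p6. All 10 had a probe set, and 8 were tested, the exceptions being Mmp1b and Mmp1a, which read no higher than 4.55 and 4.87 on any array. From Mmp13 outward the change from 6 to 12 h in LBH589 was 2.04 for Mmp13, 0.96 for Mmp12, 1.70 for Mmp3 and 0.33 for Mmp10 (log2). In DMSO the same genes changed by 0.80, 0.43, 0.94 and 0.20. Mmp12, a macrophage elastase, was called for the change in LBH589 once the tumour was a block (adjusted p = 0.0487 by limma), and Mmp10, stromelysin 2, was not (0.192). Mmp8, Mmp27, Mmp20 and Mmp7, next in the run, had changes of -0.05 to 0.15 in LBH589 and -0.14 to 0.22 in DMSO, with values between 5.88 and 7.14 throughout.

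Over both times the neighbours went different ways under LBH589. Mmp12 was higher by 0.72 ± 0.16 (log2 ± SE) and Mmp10 lower, at -0.49 ± 0.09, both called in the fit with the block (adjusted p = 0.00198 and 0.000467 by limma). Without it, Mmp10 was called (0.0473) and Mmp12 was not (0.0656).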
